A study of Homo sapiens with 18 samples.

Results

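A set of 10 genes was followed through all culture methods, out of the 50119 genes listed for each library. They were 7 genes known as targets or regulators of YAP and TEAD (ANKRD1, CCN1, CCN2, AXL, AMOTL2, LATS2 and AJUBA) and 3 actomyosin genes (TAGLN, ACTA2 and MYL9). Members were found by gene symbol, and all 10 passed the filter on low values in every comparison. The members were chosen by name with the FPKM and fold changes of these same libraries in view, so the levels and fold changes of the 10 genes are a description and carry no test.

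All libraries came from Saos-2, an established human osteosarcoma (OS) cell line that the labels write as Soas-2. D-2 was a flat culture, D-3 held the cells in Matrigel, and DP-3 was printed from a bioink of methacrylated gelatin and alginate, each kept for 14 days. DP-3 day 1 was the same printed tissue after 1 day. FIT was tumor tissue taken fresh from BALB/c nude mice that had been given the cells in Matrigel under the skin, and IT was pieces of such tumors kept on Matrigel for 14 days, so both can hold mouse cells. By the study's methods an excised tumor was split between culture and fresh use, so FIT and IT libraries may share animals. Which libraries share a tumor is not labelled, and the main fits did not pair them. No further drug or genetic change is labelled for any group. Each of the 6 groups had 3 libraries, and nothing in the labels says that these came from separate cultures or animals, so p-values measure the spread between these libraries, which may be technical.

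YAP and its paralog TAZ (gene WWTR1) are coactivators without DNA binding of their own, and they reach their targets through the TEAD proteins. The Hippo kinases, LATS2 among them, phosphorylate YAP and TAZ and hold them in the cytoplasm. Cells that spread on a stiff surface build contractile actin bundles, and in such cells YAP and TAZ are commonly nuclear, while the same actin assembly frees MRTF to act with SRF on contractile genes. The 10 genes are widely read as outputs of these pathways. Protein, phosphorylation and position in the cell were not measured here.

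Levels are given in FPKM, read fragments corrected for gene length and for depth, and can be compared between genes. Fold changes were computed from the estimated counts after TMM scaling, which corrects for differences in library make-up, and are log2 values ± standard error. Library totals were 50327345 to 79082786 estimated counts in 17 libraries and 23721666 in FIT replicate 3. In tissue of mixed cells, fewer cells of a type and less RNA per cell cannot be told apart. Of the osteoblast markers, ALPL (the alkaline phosphatase for which Saos-2 is known), SP7 and IBSP reached at most 0.148, 0.0949 and 0.0802 FPKM in any library, while RUNX2 was at 0.61 FPKM or more in all 18.

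The stretches before the transcription start of 4 of the genes are shown because they carry the letters that TEAD proteins are known to bind and belong to the genes with the widest (ANKRD1), a wide (CCN2, ACTA2) and the narrowest (AJUBA) range of levels. Each is the 250 bases before a start in RefSeq, build GRCh38.p14, written 5′ to 3′ on the minus strand, which is the strand of all 4 genes. Capitals mark GGAATG, the TEAD motif, and TGATTCA, a match to the AP-1 motif TGANTCA.
ANKRD1, chr10:90921088-90921337, minus strand: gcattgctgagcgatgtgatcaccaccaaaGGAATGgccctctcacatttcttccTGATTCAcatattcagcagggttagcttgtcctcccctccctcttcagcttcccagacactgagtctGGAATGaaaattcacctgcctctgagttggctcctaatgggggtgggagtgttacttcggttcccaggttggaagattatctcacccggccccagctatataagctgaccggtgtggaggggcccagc
CCN2, chr6:131951373-131951622, minus strand: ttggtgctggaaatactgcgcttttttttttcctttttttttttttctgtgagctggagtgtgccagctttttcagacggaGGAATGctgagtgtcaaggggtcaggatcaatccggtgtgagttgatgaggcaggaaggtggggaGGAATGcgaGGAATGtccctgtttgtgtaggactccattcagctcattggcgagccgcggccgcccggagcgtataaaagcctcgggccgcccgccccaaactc
ACTA2, chr10:88952774-88953023, minus strand: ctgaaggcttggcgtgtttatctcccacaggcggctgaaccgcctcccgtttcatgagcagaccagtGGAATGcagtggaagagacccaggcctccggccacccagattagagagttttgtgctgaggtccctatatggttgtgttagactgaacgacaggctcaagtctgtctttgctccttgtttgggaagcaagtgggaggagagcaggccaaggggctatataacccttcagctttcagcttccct
AJUBA, chr14:22976843-22977092, minus strand: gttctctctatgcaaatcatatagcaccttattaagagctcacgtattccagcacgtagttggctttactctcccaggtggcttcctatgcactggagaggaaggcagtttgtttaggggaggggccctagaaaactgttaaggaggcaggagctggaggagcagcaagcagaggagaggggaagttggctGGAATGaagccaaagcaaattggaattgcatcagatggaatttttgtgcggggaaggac

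ANKRD1 held 2 TEAD motifs, with first bases 220 and 128 bases before the start, and the AP-1 match 195 bases before it. CCN2 held 3 TEAD motifs, at 169, 104 and 95 bases before its start. ACTA2 held 1 TEAD motif 183 bases before a start that lies inside the longest gene model, and AJUBA held 1, 59 bases before a start of the same kind. The windows at the outer starts of ACTA2 and AJUBA, not shown, held 0 TEAD motifs. Both strands were searched. Windows from 250 bases before to 50 bases after a start were given for 7 of the 10 genes, 11 windows in all, and 7 of the 11 held at least 1 GGAATG in either direction. The other 3 such windows belonged to AMOTL2, LATS2 and AXL. Among all 35116 windows, 14.03% held GGAATG and 7.71% held TGANTCA. The CArG box that SRF is known to bind was searched only as the strict pattern CCWWWWWWGG (W for A or T). That pattern was in 1.29% of all windows and in 0 of the 11. The ACTA2 stretch shown holds ccctatatgg and ccttgtttgg, which each differ from the pattern by 1 base and were not counted. These matches describe letters in a window and are not shown to be sites in use. Windows for TAGLN, MYL9 and CCN1 were not used here.

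**Figure D1:**
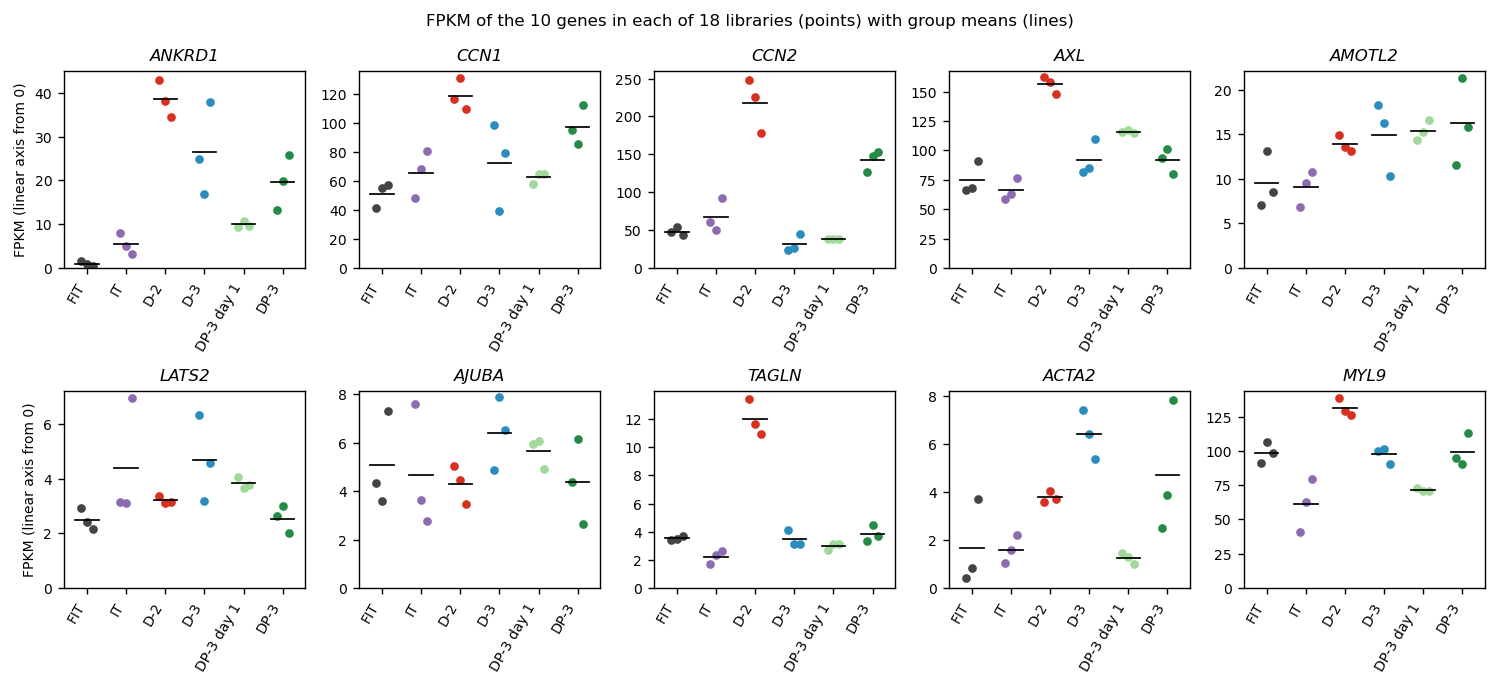
FPKM of the 10 genes (y axis, linear from 0) in the 3 libraries of each of the 6 groups (x axis); points are libraries and lines are group means. ANKRD1 means ran from 1.01 FPKM in FIT to 38.6 FPKM in D-2, TAGLN stood at 11.0 FPKM or more in D-2 alone, and AJUBA overlapped between groups throughout.

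ANKRD1 (ENSG00000148677), at chr10:90912096-90921087 on the minus strand, encodes an ankyrin repeat protein of muscle and stressed cells and is a widely used YAP readout. It had the widest range of the 10 genes, 38.2-fold between the lowest and highest group means. In FIT its level was 1.57, 1.01 and 0.444 FPKM, and in IT it was 8.05, 4.94 and 3.12 FPKM. In D-2 it was 42.9, 38.3 and 34.6 FPKM and in D-3 25.0, 16.9 and 37.9 FPKM. In DP-3 it was 13.2, 19.8 and 25.9 FPKM after 14 days and 9.41, 10.8 and 9.64 FPKM after 1 day. Each library of FIT was below each library of every other group. The order of means was D-2, D-3, DP-3, DP-3 day 1, IT and FIT, in which D-2 overlapped D-3 and D-3 overlapped DP-3, while the later steps did not overlap. Over FIT, the log2 fold change of D-2 was 5.34 ± 0.39, that of D-3 4.60 ± 0.49, that of DP-3 4.37 ± 0.46 and that of IT 2.38 ± 0.53. These 4 comparisons share the FIT libraries, in which the gene was backed by 23 to 220 estimated counts. The fragments behind them may be fewer, as 1 fragment may stand for several estimated counts.

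CCN2 (ENSG00000118523; chr6:131948176-131951372, minus strand), long known as CTGF, encodes a secreted matricellular protein and is a classic YAP target. Its group means spanned 6.85-fold. D-2 libraries held 248, 225 and 178 FPKM and DP-3 libraries 127, 147 and 154 FPKM. FIT libraries held 47.1, 54.0 and 42.9 FPKM and IT libraries 61.1, 49.9 and 92.5 FPKM. D-3 libraries were lowest, with 23.9, 27.0 and 44.3 FPKM, next to 37.8, 38.2 and 38.3 FPKM in DP-3 day 1. D-2 and DP-3 were each clear of all other groups, D-3 overlapped both DP-3 day 1 and FIT, and IT overlapped FIT. Every DP-3 day 1 library was below every FIT library. Against FIT, CCN2 was higher in D-2 (log2 fold change 2.33 ± 0.17) and DP-3 (1.70 ± 0.17). The value in D-3 was −0.66 ± 0.25, with FPKM that overlapped and TMM-scaled counts that were barely apart.

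CCN1 (ENSG00000142871; chr1:85580761-85583950, plus strand), formerly CYR61, encodes a related matricellular protein. Its span was narrower, 2.32-fold. The level was 116, 131 and 109 FPKM in D-2, 94.9, 85.5 and 112 FPKM in DP-3, and 58.2, 65.1 and 64.6 FPKM in DP-3 day 1. FIT held 41.5, 55.3 and 57.2 FPKM, and IT held 48.0, 68.1 and 80.8 FPKM. In D-3 the 3 libraries spread over 98.8, 39.6 and 79.6 FPKM, and that group overlapped every other group except D-2. CCN1 was higher than FIT in D-2 (log2 fold change 1.36 ± 0.16) and in DP-3 (1.05 ± 0.20). In D-3 the value was 0.44 ± 0.31, and 0.74 without D-3 replicate 2.

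The 2 CCN genes did not keep one ratio. Within a library, CCN2 was 1.63 to 2.14 times CCN1 in D-2 and 1.34 to 1.73 times in DP-3, on the FPKM scale. The ratio was 0.75 to 1.14 in FIT, 0.733 to 1.27 in IT, 0.588 to 0.65 in DP-3 day 1 and 0.242 to 0.681 in D-3. A ratio within a library does not depend on how libraries are scaled to each other. By the same measure CCN2 was 29.9 to 96.6 times ANKRD1 in FIT and 0.96 to 1.60 times in D-3.

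**Figure D2:**
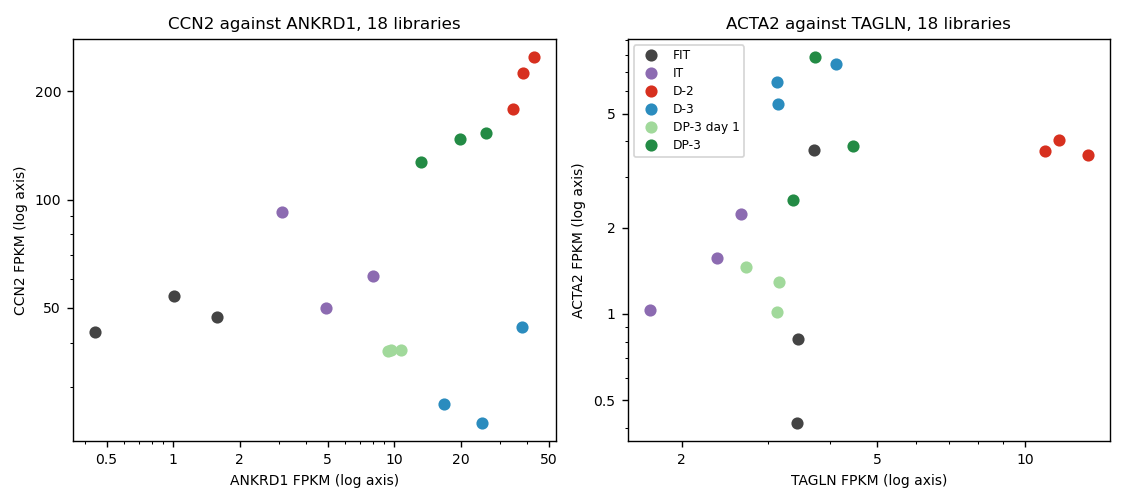
Left, CCN2 against ANKRD1 and right, ACTA2 against TAGLN, in FPKM on log axes, 1 point for each of the 18 libraries, coloured by group. D-3 libraries combined 16.9 to 37.9 FPKM of ANKRD1 with 23.9 to 44.3 FPKM of CCN2, and D-2 libraries stood apart on TAGLN but not on ACTA2.

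AXL (ENSG00000167601; chr19:41219223-41261766, plus strand) encodes a receptor tyrosine kinase that binds GAS6 and is a YAP target in several tumors. Its level was 162, 158 and 148 FPKM in D-2 and 116, 117 and 114 FPKM in DP-3 day 1. It was 81.6, 84.8 and 109.7 FPKM in D-3 and 93.2, 101 and 79.9 FPKM in DP-3. FIT held 66.4, 68.3 and 91.0 FPKM and IT 59.0, 63.3 and 76.6 FPKM. D-2 was above all other groups, DP-3 day 1 came next, and D-3, DP-3, FIT and IT formed a run in which neighbours overlapped. The log2 fold change of D-2 over FIT was 1.21 ± 0.14.

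AMOTL2, LATS2 and AJUBA encode upstream parts of the pathway. AMOTL2 (ENSG00000114019; chr3:134355874-134374594, minus strand) is an angiomotin that binds YAP, LATS2 (ENSG00000150457; chr13:20973036-21061586, minus strand) is a Hippo kinase, and both are also YAP targets that feed back on it. AJUBA (ENSG00000129474; chr14:22971177-22982551, minus strand) is a LIM protein that holds LATS kinases at tense junctions. AMOTL2 means were 9.54 ± 3.15 FPKM in FIT and 9.07 ± 2.03 FPKM in IT (SD, n = 3) against 13.9 to 16.2 FPKM in the other 4 groups, with a span of 1.79-fold. LATS2 means ran from 2.50 ± 0.40 FPKM in FIT to 4.71 ± 1.57 FPKM in D-3 (SD, n = 3), and in IT 1 library at 6.97 FPKM stood above 3.13 and 3.11 FPKM. AJUBA was 2.64 to 7.87 FPKM over all libraries, its means spanned 1.49-fold, and no neighbouring groups in its order were apart. The direction of AJUBA turned with the setting in 5 of the 7 comparisons and that of AMOTL2 in 3.

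TAGLN (ENSG00000149591; chr11:117199370-117207464, plus strand) encodes transgelin, an actin cross-linking protein of smooth muscle and a standard SRF target. It was 13.4, 11.7 and 11.0 FPKM in D-2. It was 4.12, 3.13 and 3.15 FPKM in D-3 and 3.37, 4.46 and 3.73 FPKM in DP-3. FIT held 3.43, 3.45 and 3.71 FPKM, DP-3 day 1 2.71, 3.15 and 3.13 FPKM, and IT 1.72, 2.35 and 2.64 FPKM. Only D-2 was high, the middle groups overlapped as neighbours, and IT was below every other group. DP-3 day 1, though above IT, was also below every FIT library. The log2 fold change over FIT was 1.92 ± 0.11 in D-2 and −0.65 ± 0.22 in IT. PCSK7 on the opposite strand shares 3128 bases with TAGLN and was highest in FIT, at 3.44 ± 0.08 FPKM (SD, n = 3), and lowest in D-2, at 1.95 ± 0.11 FPKM. Whether the counting used the strand is not stated, and reads in such shared stretches then cannot be told apart.

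MYL9 (ENSG00000101335; chr20:36541497-36551447, plus strand) encodes a regulatory light chain of nonmuscle and smooth muscle myosin. Its levels were 139, 129.6 and 126 FPKM in D-2, 91.3, 107 and 98.3 FPKM in FIT and 41.2, 63.0 and 79.2 FPKM in IT. D-3 held 100.3, 101 and 90.7 FPKM, DP-3 95.0, 90.9 and 113 FPKM, and DP-3 day 1 72.8, 70.9 and 70.5 FPKM. As with TAGLN, D-2 was above and IT below every FIT library, by log2 fold changes of 0.56 ± 0.11 and −0.69 ± 0.26. DP-3 day 1 was also below every FIT library for both genes. FIT, D-3 and DP-3 overlapped. The related light chains MYL12A and MYL12B are close copies, and how reads common to them were assigned is not stated.

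ACTA2 (ENSG00000107796; chr10:88935074-88991339, minus strand) encodes smooth muscle alpha-actin, the usual marker of myofibroblasts. Its pattern was not that of TAGLN. D-3 was highest, with 7.43, 6.42 and 5.39 FPKM, beside 3.59, 4.04 and 3.71 FPKM in D-2 and 2.50, 3.86 and 7.84 FPKM in DP-3. IT held 1.03, 1.56 and 2.22 FPKM and DP-3 day 1 1.46, 1.29 and 1.01 FPKM. In FIT the values were 0.418, 0.816 and 3.73 FPKM, so 1 library of 3 set the mean of 1.65 ± 1.81 FPKM (SD). Within a library ACTA2 was 1.71 to 2.05 times TAGLN in D-3 but 0.268 to 0.346 times in D-2.

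The FIT library with high ACTA2, replicate 3, was also the shallowest and had 3.61 FPKM of MYH2, a skeletal muscle myosin that was at most 0.0709 FPKM in every other library. Its skeletal muscle marker sum over 11 genes was 5.74 FPKM, against 1.07 to 1.87 FPKM in the other FIT libraries and 0.059 to 0.836 FPKM elsewhere. The smooth muscle sum over 10 genes was 59.9 to 92.7 FPKM in FIT and 39.6 to 55.3 FPKM elsewhere, while the defining markers MYH11 and MYOCD were at most 0.193 and 0.0582 FPKM in any library. Most of that sum was CSPG4, at 28.7 FPKM or more in all libraries, and ACTG2. The near copy ACTG2, enteric smooth muscle actin, went the other way within FIT, with 45.3, 58.7 and 10.3 FPKM, and was 1.84 to 12.5 FPKM elsewhere. Levels of such near-identical actin genes are uncertain where reads fit both. The endothelial sum over 8 genes was 3.92 to 6.59 FPKM in FIT and IT and 1.28 to 2.47 FPKM in the other groups, with PECAM1 in the lead. PTPRC, which marks blood cells, was at most 0.0625 FPKM. The macrophage sum was 19.6 to 56.1 FPKM in FIT and 42.9 to 117 FPKM elsewhere, nearly all CD68, and the fibroblast sum was 18.7 to 30.5 FPKM in FIT and 7.50 to 18.7 FPKM elsewhere, mostly PDGFRA. The part of other cell types in these levels was not tested. Without FIT replicate 3, the log2 fold change of ACTA2 over FIT went from 1.37 to 2.70 (D-2), from 1.93 to 3.26 (D-3), from 1.68 to 3.04 (DP-3) and from −0.02 to 1.35 (IT). FAS, which shares 809 bases with ACTA2 on the opposite strand, was 1.48 ± 0.47 FPKM in FIT and 3.06 ± 0.46 FPKM in D-3 (SD, n = 3).

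D-2 was compared with FIT to set flat culture against the tumor. Of the 10 genes, 8 were higher in every D-2 library than in every FIT library and 0 were lower, beside 18.9% of all 19513 genes tested that were higher in this way and 31.0% that were lower. The exceptions were ACTA2, which overlapped on the FPKM scale, and AJUBA. AMOTL2, among the 8, was clear by FPKM only by a hairline, with 13.1174 as its lowest value in D-2 and 13.0852 as its highest in FIT. The median log2 fold change of the 10 genes was 1.28, beside −0.09 over all genes tested. Here and below, the shares over all genes include weakly expressed genes and were not matched to the level of the 10 genes. A library of D-2 held 17716 to 18109 genes at 0.1 FPKM or more and one of DP-3 18664 to 19249. The range was 19969 to 21750 in FIT, 20539 to 21813 in IT, 21384 to 22322 in D-3 and 24694 to 24791 in DP-3 day 1. How far this moved the shares was not tested.

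D-3 against FIT gave 3 genes higher without overlap (ANKRD1, ACTA2 and LATS2) and 0 lower, beside 20.5% and 11.9% of 21676 genes. DP-3 against FIT gave 3 higher (ANKRD1, CCN2 and CCN1) and 0 lower, beside 12.5% and 21.6% of 20039 genes. IT against FIT gave 2 higher (ANKRD1 and LATS2) and 2 lower (TAGLN and MYL9), beside 11.1% and 9.49% of 21183 genes. ANKRD1 was the one gene of the 10 that was higher without overlap in all 4 comparisons with FIT. These 4 comparisons share the FIT libraries and are not independent of each other.

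D-3 was set against D-2 to compare culture in Matrigel with flat culture. Here 5 genes were lower without overlap and 1, ACTA2, was higher, beside 14.6% of 20231 genes lower and 38.6% higher. The log2 fold change was −3.03 ± 0.26 for CCN2, −2.05 ± 0.15 for TAGLN, −1.01 ± 0.14 for AXL, −0.96 ± 0.30 for CCN1 and −0.68 ± 0.10 for MYL9, and 0.51 ± 0.16 for ACTA2. ANKRD1 stood at −0.79 ± 0.27 with overlapping FPKM. In DP-3 against D-2, 6 genes were lower without overlap and 0 were higher, beside 13.4% and 17.5% of 18549 genes. TAGLN had the widest gap, −1.67 ± 0.13, followed by ANKRD1 at −0.99 ± 0.25, AXL at −0.80 ± 0.10, CCN2 at −0.63 ± 0.15, MYL9 at −0.43 ± 0.12 and LATS2 at −0.37 ± 0.15.

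The printed tissue was compared between its 2 days. After 14 days, 6 genes were higher without overlap than after 1 day and 2 were lower, beside 9.96% and 35.2% of 20774 genes. ACTA2 (log2 fold change 2.19 ± 0.45) and CCN2 (2.18 ± 0.11) differed most, followed by ANKRD1 (1.26 ± 0.25), CCN1 (0.91 ± 0.14), MYL9 (0.75 ± 0.12) and TAGLN (0.63 ± 0.13). LATS2 was lower, at −0.33 ± 0.15. AXL was lower in each library by FPKM, but its TMM-scaled value was −0.07 ± 0.09 and its scaled counts overlapped.

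The 2 scales were shifted against each other, by an amount that differed between genes. The median over all genes tested was lower by FPKM than by TMM by 0.23 on the log2 scale in DP-3 against DP-3 day 1, by 0.13 in D-2 against FIT and by 0.10 in DP-3 against FIT, and higher by 0.21 in D-3 against D-2. On TMM-scaled counts ACTA2 was also clear of FIT in D-2, AXL was higher than FIT in DP-3, and ANKRD1 was lower than D-2 in D-3. CCN2 was lower than FIT in D-3, and TAGLN higher than FIT in DP-3, only by a hairline. Relative to library size, the nearest CCN2 values were 115.861 in D-3 and 116.021 in FIT. The nearest TAGLN values were 28.358 in DP-3 and 28.226 in FIT.

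**Figure D3:**
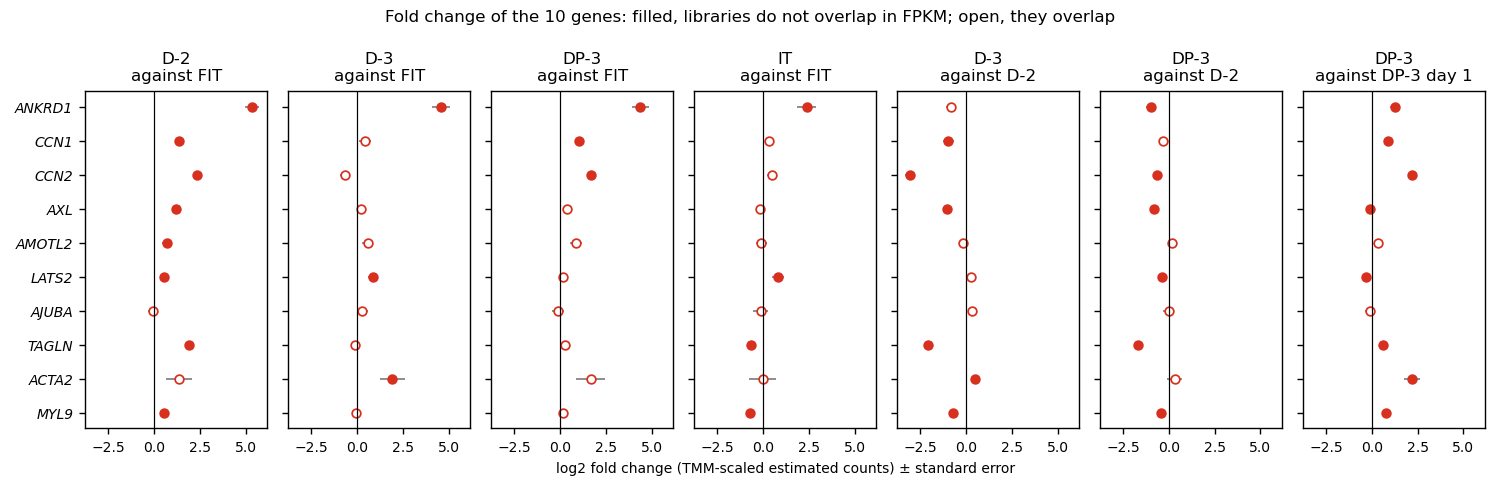
Log2 fold change from TMM-scaled estimated counts (x axis, bars ± standard error) of the 10 genes (y axis) in 7 comparisons of 3 against 3 libraries; filled points had no overlap of FPKM between the groups. ANKRD1 lies right of 0 in all 4 comparisons with FIT, from 2.38 to 5.34, and CCN2 runs from −3.03 in D-3 against D-2 to 2.33 in D-2 against FIT.

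Across the 18 libraries the 10 genes varied together only in part. Of 45 pairs, 36 had a Pearson r of log2(FPKM + 0.1) above 0, the median was 0.376, and the highest was 0.813 for TAGLN and MYL9. Among 12394 genes with a mean of at least 1 FPKM, the genes most like ANKRD1 were GLRX3 (r = 0.912), SERTAD2 (0.911) and ITPR2 (0.911). Those most like AXL included ATP1B1 (0.929) and NUAK1 (0.929), and those most like TAGLN were THBS1 (0.918), KDM1A (0.893) and RFC1 (0.88). Closest to CCN2 were AL133346 (0.962), HSP90AB1 (0.92) and ADGRL2 (0.904). AL133346 lies on the opposite strand and shares 427 bases with CCN2, and its mean ran from 1.80 FPKM in D-3 to 15.8 FPKM in D-2. All points share the group differences of 6 groups, so these values describe and carry no p.

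The surrounding pathway was read from 99 other genes in 5 lists: 16 other YAP targets, 28 Hippo components and effectors, 22 SRF and actomyosin genes, 19 adhesion and small GTPase genes and 14 paralogs of the members or partners of AXL. These lists too were chosen with earlier results of these data known. List counts, shares and medians set beside all genes are therefore a description and no independent support. A gene was called a DEG at an adjusted p below 0.05 (edgeR's quasi-likelihood test, adjusted by Benjamini and Hochberg's method over all genes tested) and a fold change of at least 2. In D-2 against FIT, 8 of 94 tested pathway genes were upregulated and 4 downregulated, beside 3.83% and 10.8% of all genes tested. The list of other YAP targets split, with 3 up and 3 down of 16. CRIM1, a transmembrane BMP antagonist, rose from 10.5 ± 0.34 to 40.4 ± 4.0 FPKM (log2 fold change 2.10 ± 0.11, edgeR adjusted p = 0.000592). IGFBP3, a binding protein of insulin-like growth factors, fell from 16.8 ± 6.03 to 2.42 ± 0.03 FPKM (−2.64 ± 0.28, edgeR adjusted p = 0.00205). FOXF2, a forkhead factor, rose (1.35 ± 0.24, edgeR adjusted p = 0.00734), as did the Hippo scaffold WWC1 (1.43 ± 0.12, edgeR adjusted p = 0.00159). GADD45A, a stress response gene, fell (−1.10 ± 0.26, edgeR adjusted p = 0.0184), and so did RHOB, a small GTPase (−1.03 ± 0.14, edgeR adjusted p = 0.00343). Of 21 SRF and actomyosin genes tested, 0 were called and 10 had an unadjusted p below 0.05, beside 43.3% of all genes tested, with a median log2 fold change of 0.01. GADD45A lost its call without any 1 D-2 library (edgeR adjusted p 0.0514 to 0.0682) and without FIT replicate 2 (−0.77), and RHOB went to −0.99 without D-2 replicate 3 and −0.91 without FIT replicate 1.

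In D-3 against FIT, 5 of 95 pathway genes were upregulated and 9 downregulated, beside 4.29% and 2.17% of all genes tested. The downregulated genes included WWTR1, the gene of TAZ, which went from 37.2 ± 6.37 to 16.8 ± 1.84 FPKM (log2 fold change −1.21 ± 0.19, edgeR adjusted p = 0.0116), and TEAD1 (−1.14 ± 0.26, edgeR adjusted p = 0.0376). NT5E, an ectonucleotidase (−1.74 ± 0.26, edgeR adjusted p = 0.00934), IGFBP3 (−2.67 ± 0.32, edgeR adjusted p = 0.00477) and CCN4, a paralog of CCN2 (−2.98 ± 0.56, edgeR adjusted p = 0.0194), fell as well. FHL2, a LIM cofactor (1.14 ± 0.20, edgeR adjusted p = 0.0158), ARHGEF2, a guanine nucleotide exchange factor (2.46-fold, edgeR adjusted p = 0.0076), and PROS1, a ligand of AXL relatives (2.74 ± 0.35, edgeR adjusted p = 0.00543), rose. The median log2 fold change over the 95 genes was −0.29, beside 0.02 over all genes. The count of 14 fell to 7 without D-3 replicate 1 and to 3 without D-3 replicate 3, which ended the calls of WWTR1, CCN4 and FHL2 in either case (edgeR adjusted p 0.0534 to 0.0837). TEAD1 kept its call in 1 of the 6 fits that left out a library, the one without FIT replicate 2. NT5E lost its call without D-3 replicate 3 (edgeR adjusted p = 0.0597), and FHL2 also without FIT replicate 1 (log2 fold change 0.97) or 2 (edgeR adjusted p = 0.0582).

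In DP-3 against FIT, 2 of 93 pathway genes were upregulated and 3 downregulated, beside 1.66% and 3.16% of all genes tested. CRIM1 rose (1.03 ± 0.14, edgeR adjusted p = 0.0123), and IGFBP3 (−2.79 ± 0.34, edgeR adjusted p = 0.0101), RHOB (−1.69 ± 0.18, edgeR adjusted p = 0.00745) and NF2, the Hippo activator merlin (−1.28 ± 0.19, edgeR adjusted p = 0.0149), fell. The count of 5 was 1 without DP-3 replicate 1, 3 without DP-3 replicate 2 or 3, 2 without FIT replicate 1 and 13 without FIT replicate 3. CRIM1 lost its call without DP-3 replicate 1 or 3 or FIT replicate 1, NF2 without DP-3 replicate 1 or 2 or FIT replicate 1, and IGFBP3 without DP-3 replicate 1. The edgeR adjusted p was then 0.0529 to 0.0679, except for CRIM1 without DP-3 replicate 3, where the log2 fold change of 0.95 was under the limit.

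In IT against FIT, edgeR called 0 of 93 pathway genes and 0% of all 21183 genes tested, while 23 and 2693 had an unadjusted p below 0.05. DESeq2 called 3 and 661, and a single edgeR fit of all libraries called 3 and 553. Of the 21 SRF and actomyosin genes, 11 were lower in IT without overlap and 0 higher, beside 9.49% and 11.1% of all genes tested, and the list's median log2 fold change was −0.39, beside 0.01 over all genes. Of the 19 adhesion and small GTPase genes, 9 were lower without overlap and 1 higher, with a median of −0.23.

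In D-3 against D-2, 3 of 95 pathway genes were upregulated and 11 downregulated, beside 14.6% and 3.95% of all genes tested. CAV1, the caveolae scaffold, fell from 698 ± 28.2 to 256 ± 12.8 FPKM (log2 fold change −1.70 ± 0.10, edgeR adjusted p = 0.000642). FRMD6, a FERM protein of the Hippo pathway (−1.32 ± 0.21, edgeR adjusted p = 0.00439), and CCN4 (−1.61 ± 0.34, edgeR adjusted p = 0.0113) fell too. GADD45A (1.69 ± 0.23, edgeR adjusted p = 0.00292), ARHGEF2 (1.39 ± 0.16, edgeR adjusted p = 0.00228) and PROS1 (1.13 ± 0.24, edgeR adjusted p = 0.0124) were the 3 that rose. The median log2 fold change over the 95 genes was −0.43, beside 0.11 over all genes, and 18 of the 95 were above 0. For the 21 SRF and actomyosin genes tested the median was −0.54. Of these, 10 were lower without overlap and 3 higher, beside 14.6% and 38.6% of all genes tested. PROS1 went to 0.99, under the fold limit, without D-2 replicate 3.

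In DP-3 against D-2, 0 of 93 pathway genes were upregulated and 2, CRIM1 and the cadherin FAT4, downregulated, beside 0.722% and 0.318% of all genes tested. CRIM1 went from 40.4 to 19.5 ± 1.14 FPKM (−1.07 ± 0.11, edgeR adjusted p = 0.0153). The count of 2 was 1 without D-2 replicate 1 or DP-3 replicate 2, 0 without D-2 replicate 2 or 3 and 5 without DP-3 replicate 3, and the call of CRIM1 was lost without any 1 D-2 library (edgeR adjusted p 0.0535 to 0.0873). FAT4 was named after its values were seen. Between the days of DP-3, IGFBP3 rose (1.71 ± 0.26, edgeR adjusted p = 0.00595) and RHOB fell (−1.48 ± 0.13, edgeR adjusted p = 0.00182), 1 of 93 in each direction beside 1.81% and 5.76% of all genes tested. Of 21 SRF and actomyosin genes tested, 0 were called. Their median log2 fold change was 0.54, beside −0.06 over all genes, and 17 were above 0. An unadjusted p below 0.05 was reached by 13, beside 35.8% of all genes tested. By FPKM 7 were higher without overlap and 4 lower, beside 9.96% and 35.2%.

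**Figure D4:**
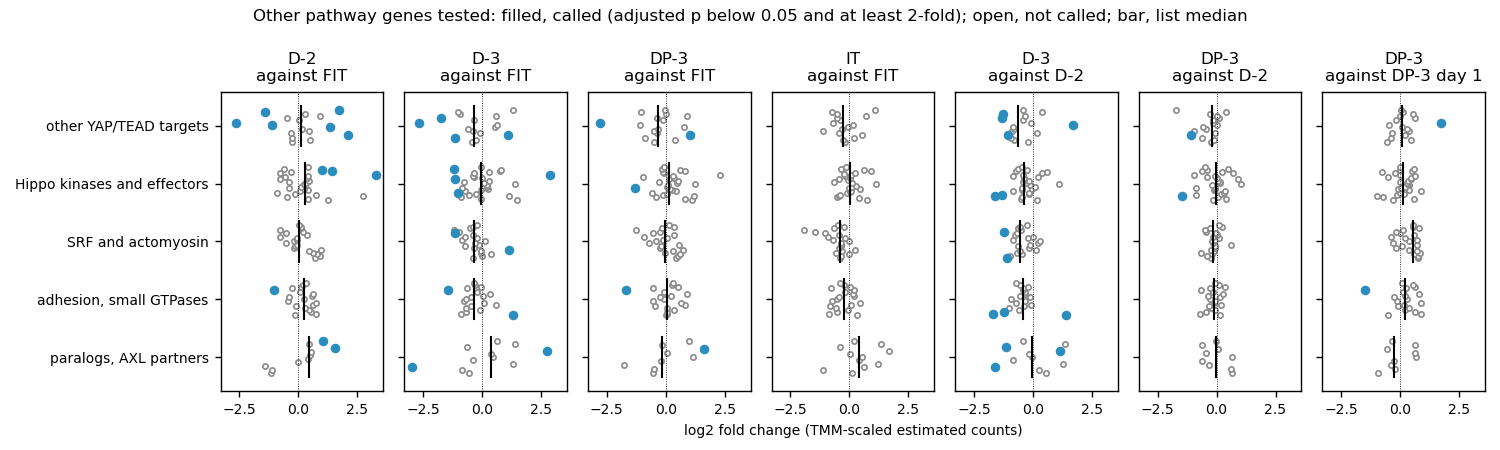
Log2 fold change (x axis, TMM-scaled estimated counts) of the tested genes of 5 pathway lists (y axis) in 7 comparisons; each point is a gene, filled where called, and bars are list medians. Calls number 12 in D-2 against FIT, 14 in D-3 against FIT and in D-3 against D-2, and 0 in IT against FIT.

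Among the coactivators, YAP1 means were 29.8 to 40.9 FPKM in all groups, and its largest log2 fold changes were −0.49 ± 0.17 in DP-3 against D-2 (edgeR adjusted p = 0.162) and −0.48 ± 0.14 in D-3 against D-2 (edgeR adjusted p = 0.034), both under the fold limit. WWTR1 was highest in FIT and lowest in D-3. TEAD2 (8.22 to 9.63 FPKM), TEAD3 (4.30 to 9.12 FPKM) and TEAD4 (9.67 to 14.5 FPKM) were called in 0 of the 7 edgeR comparisons. SRF was 17.8 ± 4.15 FPKM in IT and 28.1 ± 1.81 FPKM in DP-3 (SD, n = 3). Its coactivators MRTFA and MRTFB were at 4.22 to 6.78 and 1.62 to 2.78 FPKM, and none of these 3 genes was called in any of the 7 edgeR comparisons. Several changes missed a call only by the fold limit. In D-3 against D-2 these were TEAD4 (−0.84 ± 0.13, edgeR adjusted p = 0.00461), SRF (−0.75 ± 0.14, edgeR adjusted p = 0.00734), MRTFA (−0.63 ± 0.14, edgeR adjusted p = 0.0131) and WWTR1 (−0.62 ± 0.11, edgeR adjusted p = 0.00672). Between the days of DP-3, SRF (0.60 ± 0.10, edgeR adjusted p = 0.00723) and TEAD4 (0.63 ± 0.15, edgeR adjusted p = 0.0229) were higher after 14 days. With an unadjusted p below 0.05 as the mark, 52 of 94 pathway genes passed in D-2 against FIT, 42 of 95 in D-3 against FIT and 37 of 93 in DP-3 against FIT, beside 43.3%, 24.9% and 27.6% of all genes tested. Because the lists were chosen with earlier results known, these shares only describe.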

How the data were processed

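RNA sequencing values of 18 libraries were analysed, and groups were taken from the labels. Per the labels and the study's methods, the authors used cutadapt 1.9 to filter reads, HISAT2 2.0.4 for alignment and StringTie 1.3.4d for assembly. Their genome build and annotation are not given in the sources used here. Deposited coordinates overlapped GENCODE 29 (GRCh38) for 99.81% of the 48223 genes found there. Whether mouse reads were removed, and whether the counting used strand, is not given in the sources used here either. The deposited FPKM were computed by the authors with StringTie. The deposited estimated counts are whole numbers whose making is not stated. They follow coverage, and 35.0% of 212148 counts of 1 to 40 were multiples of 4, beside 1 in 4 of evenly spread whole numbers. Thus 1 fragment may stand for several counts, which was not tested, and counting intervals were not computed.

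Fits used the 6 libraries of a comparison and edgeR 4.0.16 (TMM scaling, glmQLFit, glmQLFTest) in R 4.3.3, without a replicate block, on genes that reached 0.1 FPKM in 3 or more libraries. Standard errors were |log2 fold change|/√F. DEGs needed a Benjamini-Hochberg adjusted p below 0.05 and a fold change of at least 2. Groups were said not to overlap where every library of one was above every library of the other in FPKM. Likeness used log2(FPKM + 0.1) and genes with a mean FPKM of at least 1. Other settings were DESeq2 1.42.0, limma 3.58.1 on log2(FPKM + 0.1), no filter, an FPKM minimum of 1, median-of-ratios scaling, one fit of all libraries, a replicate block and each library left out. The code was tested on simulated counts. Besides the members, the genes named were YAP1, WWTR1, TEAD1 to TEAD4, SRF, MRTFA and MRTFB, and in each comparison up to 3 pathway genes in each direction, those with the largest change among DEGs that did not overlap and reached a group mean of 1 FPKM. The members and all gene lists were chosen with earlier results of these data known. One gene that the likeness rule named and one osteoblast marker are not reported here. Promoter sequences were those of RefSeq, and motifs were searched with Python 3.11.15. No pair of libraries held identical values, and 0 columns of sample values were left unused. Replicates lay closer together in DP-3 day 1 and D-2 than in the other groups. The median chi-squared value per gene between 2 replicates was 6.02 to 6.16 in DP-3 day 1, 6.62 to 9.41 in D-2 and 13.65 to 58.02 elsewhere. Whether the closer replicates were technical was not tested.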

Additional observations from a re-analysis of the deposited data

Results flagged for a closer look

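TAGLN, MYL9 and CCN2 were the members for which one culture stood above FIT and another below it in every library, on the FPKM scale. DP-3 day 1 was below every FIT library for each of these genes, and IT for TAGLN and MYL9. For CCN2, DP-3 day 1 was at 37.8 to 38.3 FPKM and FIT at 42.9 to 54.0 FPKM, with D-2 and DP-3 above. TMM-scaled counts of CCN2 also placed DP-3 day 1 below FIT, and D-3 below it only by a hairline. Relative to library size, the highest D-3 value was 115.861 and the lowest FIT value 116.021. That FIT value came from replicate 3, the shallowest library, and FPKM of D-3 and FIT overlapped. For TAGLN the D-2 libraries were at 11.0 to 13.4 FPKM, FIT at 3.43 to 3.71 FPKM and IT at 1.72 to 2.64 FPKM, and the D-2 mean was 5.37 times the IT mean. For MYL9 the D-2 libraries were at 126 to 139 FPKM, FIT at 91.3 to 107 FPKM and IT at 41.2 to 79.2 FPKM, and the ratio of D-2 to IT was 2.15. The difference between the 2 effects was not tested, since it shares the FIT libraries and the members were chosen with these values known. Groups of 3 libraries are too small to look for single libraries that stand apart.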

How the results depend on the processing

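The members' log2 fold changes kept their values within the spread between replicates in 480 of 490 results under other settings and in all 420 with 1 library left out, but the sign of some small ones turned: AJUBA in 5 comparisons, AMOTL2 in 3, ACTA2 in IT against FIT (−0.47 to 1.35) and DP-3 against D-2 (−0.31 to 0.64), and MYL9 in D-3 against FIT (−0.16 to 0.02). The 10 that moved did so mostly with limma on log2(FPKM + 0.1). Of the pathway genes named, 0 reversed. Calls ended by settings other than a left-out library or the replicate block were RHOB in D-2 against FIT (log2 fold change −0.98 without a filter, and edgeR adjusted p = 0.15 in one fit of all libraries), TEAD1 in D-3 against FIT (adjusted p = 0.0625 with limma and 0.051 in one fit with edgeR), CRIM1 in DP-3 against FIT (0.94 with an FPKM minimum of 1 and 0.89 with limma), and in one fit with edgeR CCN4 in D-3 against D-2 (adjusted p = 0.0884) and RHOB in DP-3 against DP-3 day 1 (adjusted p = 0.0704).

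The numbers of DEGs were less stable than the members' values. DESeq2 gave 2498 instead of 1399 in D-3 against FIT, 1894 instead of 965 in DP-3 against FIT, 661 instead of 0 in IT against FIT and 677 instead of 193 in DP-3 against D-2. One fit of all libraries gave 1619 in DP-3 against FIT and 553 in IT against FIT, and no filter gave 53 in IT against FIT. An FPKM minimum of 1 gave 1602 instead of 2846 in D-2 against FIT, 1902 instead of 3746 in D-3 against D-2 and 900 instead of 1571 in DP-3 against DP-3 day 1. Pathway genes called in DP-3 against FIT were 10 with DESeq2 and 10 with no filter instead of 5, and in IT against FIT 3 with DESeq2 and 3 in one fit of all libraries. In D-3 against D-2 they were 9 with limma instead of 14. In DP-3 against D-2 they were 1 with an FPKM minimum of 1, with limma and in one fit, and in DP-3 against DP-3 day 1 they were 1 in one fit, each instead of 2. The causes were not tested.

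Replicate numbers did not pair the libraries: correlations of deviations for the same number were −0.038 to 0.061. In DP-3 against DP-3 day 1 every library correlated best with its own number. With the replicate number as a block, DEGs were 904 in D-3 against FIT, 164 in DP-3 against FIT, 15 in DP-3 against D-2 and 938 in DP-3 against DP-3 day 1, and pathway genes called were 1 in DP-3 against FIT and 0 in DP-3 against D-2. Among the genes named, the block ended the calls of CRIM1, IGFBP3 and NF2 in DP-3 against FIT (edgeR adjusted p = 0.0556, 0.0526 and 0.0621) and of CRIM1 in DP-3 against D-2 (edgeR adjusted p = 0.0819). The block moved the other counts by less than 1.5 times.

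With 1 library left out, DEGs were 1755 to 2980 in D-2 against FIT, 240 to 1495 in D-3 against FIT, 90 to 1438 in DP-3 against FIT, 0 to 1 in IT against FIT, 2139 to 3519 in D-3 against D-2, 3 to 223 in DP-3 against D-2 and 744 to 1585 in DP-3 against DP-3 day 1. Pathway genes called were, in the same order, 8 to 14, 3 to 15, 1 to 13, 0 to 0, 14 to 18, 0 to 5 and 2 to 3. The lowest counts of DEGs came without FIT replicate 1 (D-2 against FIT), without D-3 replicate 3 (D-3 against FIT), without replicate 1 of DP-3 (DP-3 against FIT) or of D-3 (D-3 against D-2), without D-2 replicate 2 (DP-3 against D-2) and without the third library of DP-3 day 1.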
